A study of Mus musculus with 18 samples.

Results

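The 42 genes described here drive and mark cell division: cyclins, cyclin-dependent kinases (Cdk) and their inhibitors, the enzymes that copy DNA, and the machinery of mitosis. They were taken by gene symbol from the 56413 genes of the deposited count table, and all 42 were among the 14076 genes with enough counts to be tested. The cells were basophils, rare granulocytes that carry the high-affinity IgE receptor, grown from mouse bone marrow in interleukin-3 (0.3 ng/mL) for 7 days. In every group the cells had received anti-TNP IgE (TNP is a hapten) at 1 µg/mL on day 6 and had been enriched on magnetic beads for CD49b, and each sample held 50000 cells. The 6 groups had 3 libraries each: TTP-KO after 2 h of TNP-OVA, TTP-KO after 4 h of TNP-OVA, TTP-KO after 2 h of control OVA, and WT in those same 3 conditions, with both proteins at 10 ng/mL. Libraries after 4 h of antigen are thus set against controls of 2 h, and time in culture and antigen cannot be told apart there. TNP-OVA is ovalbumin that carries the hapten and crosslinks the IgE, and plain OVA does not carry it. TTP is tristetraprolin, an RNA-binding protein encoded by Zfp36 that promotes decay of messenger RNAs with AU-rich elements. The labels give no allele, age or sex of the mice. They also leave unsaid if the replicate libraries are from different mice or cultures, so each p-value reflects the spread among these libraries and that spread may be technical.

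Library totals ran from 5516580 to 12733172 estimated counts, and levels are given as TMM-scaled CPM, counts scaled to a common library total. Zfp36 RNA was not reduced under the TTP-KO label: the log2 difference from WT was 0.33 after 2 h of antigen (edgeR adjusted p = 0.000316), 0.14 after 4 h (adjusted p = 0.151) and -0.08 in control (adjusted p = 0.601). The position of the deletion is not given, so this RNA level checks neither label, and every direction between genotypes below rests on the labels. The 11 basophil markers, among them the proteases Mcpt8 and Prss34, summed to between 24135 and 34861 CPM in every library, while Cd3e of T cells was at most 0.519 CPM and at 0 in 6 of the 18 libraries. Genes on the lists of other cell types were present, among them S100a9 of neutrophils (368 to 1014 CPM), C1qb of macrophages (533 to 705 CPM), Itga2b and Pf4 of megakaryocytes (527 to 636 and 361 to 609.6 CPM) and Cd79b of B cells (6.86 to 23.9 CPM).

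In the cell cycle, D-type cyclins with Cdk4 or Cdk6, and then cyclin E with Cdk2, release E2F factors from retinoblastoma proteins and open S phase. Cdkn1a and Cdkn1b encode inhibitors that bind these kinases. Cyclin A, cyclin B and Cdk1 carry the cell into mitosis, where Aurora and Polo kinases build the spindle and the checkpoint proteins hold back the anaphase-promoting complex until chromosomes are attached. Basophils arise from dividing marrow precursors that expand in interleukin-3, and mature basophils are generally regarded as non-dividing.

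After antigen, no mitotic member that passed the test in either genotype rose. In TTP-KO-labelled libraries 16 and 11 of 21 fell at 2 h and 4 h, and in WT 11 and 9 of 21, in part different members. Of the 10 replication genes 5 fell at each time in TTP-KO-labelled libraries, and 3 and 4 in WT, while 1 of them, Pcna, rose in each comparison. The regulators Ccnd2, Ccnd3 and Cdkn1a rose and the inhibitor Cdkn1b fell. In TTP-KO-labelled libraries after 2 h, 4 members rose and 25 fell, where 17.8% and 16.6% of all tested genes did so (edgeR quasi-likelihood test, adjusted p under 0.05). A gene is called here where it passed in that fit of all 18 libraries, and alternative fits are named as such. After 4 h in those libraries 4 rose and 18 fell, where 18.3% and 16.7% of all tested genes did. In WT libraries 5 rose and 17 fell after 2 h, where 17.8% and 17.3% of all genes did, and 5 rose and 17 fell after 4 h, where 19.6% and 18.4% did. The median log2 change of the 42 members was -0.30 after 2 h and -0.20 after 4 h in TTP-KO-labelled libraries, beside -0.03 and 0.01 over all tested genes. In WT it was -0.22 after 2 h and -0.19 after 4 h, beside -0.05 and -0.01 over all tested genes. The 2 h and 4 h comparisons of a genotype share its 3 control libraries. In these bulk samples fewer dividing cells and less RNA per dividing cell cannot be told apart. Levels are relative to each library, and total RNA per cell was not measured. The TMM scaling factors were 1.09 to 1.13 in controls, 0.872 to 0.896 after 2 h of antigen and 0.994 to 1.03 after 4 h. Of the 17 members that fell in WT after 4 h, 11 did so under DESeq2 and 10 when replicate 3 of WT after 4 h was left out.

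**Figure D1:**
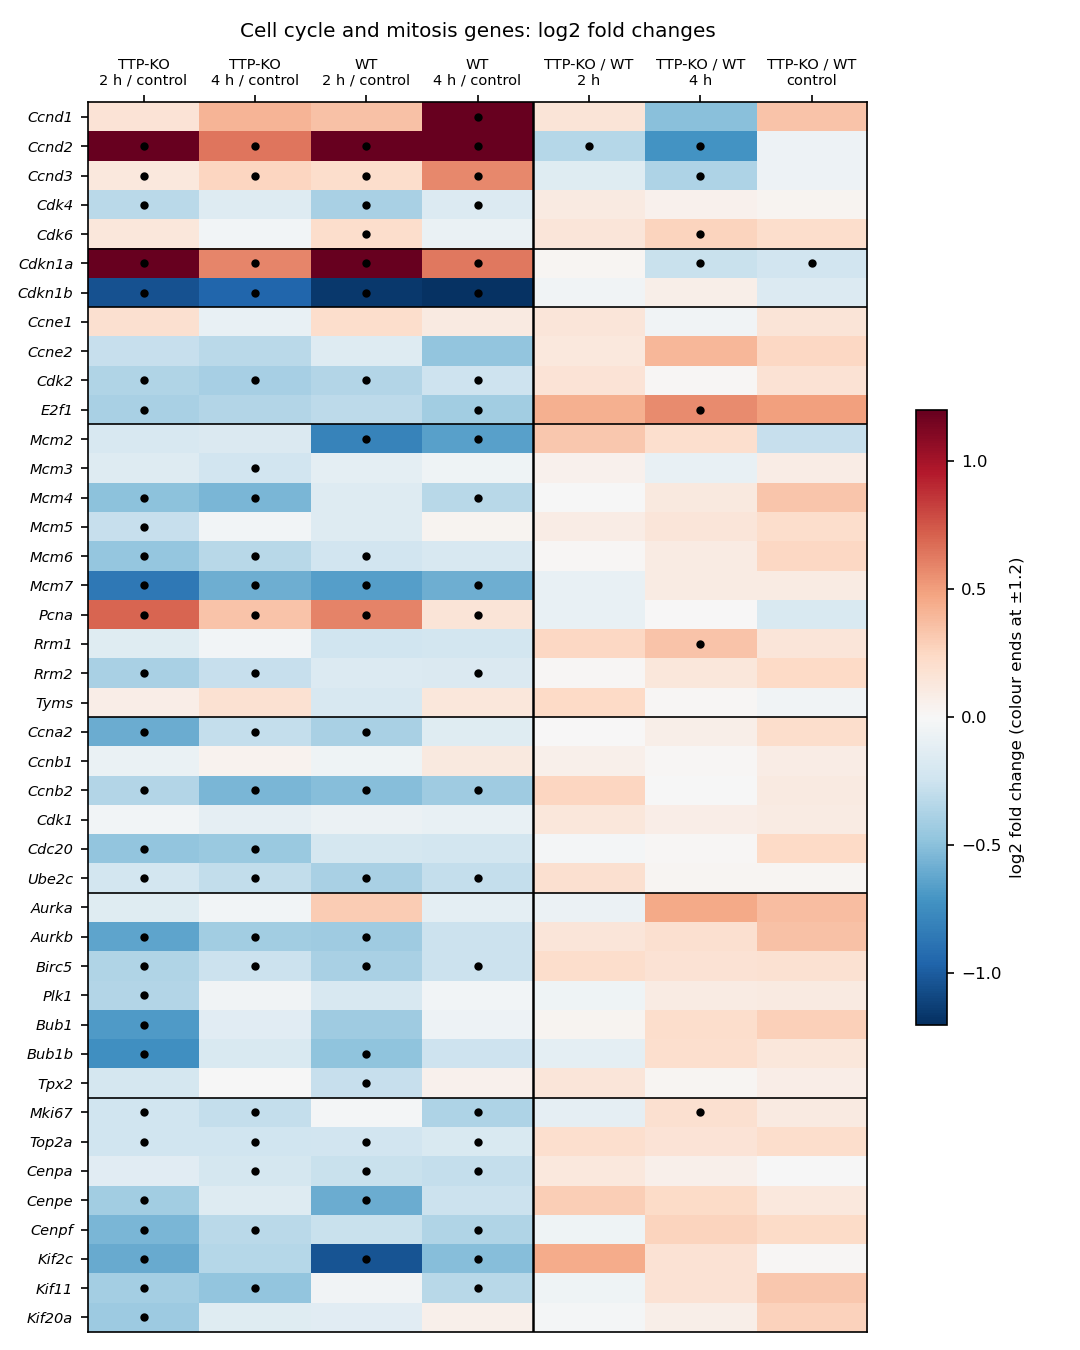
Log2 fold changes of the 42 cell cycle and mitosis genes (rows, in 7 role groups divided by lines) in the 4 antigen comparisons and the 3 comparisons of TTP-KO-labelled with WT libraries (columns). Black dots mark an edgeR adjusted p under 0.05, and the colour scale ends at 1.2 in either direction; blue fills most of the lower rows of the 4 antigen columns, and the genotype columns hold few dots.

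The D-type cyclins, which switch on Cdk4 and Cdk6 in early G1, were among the members that rose. Ccnd2 had 256, 242 and 224 CPM in TTP-KO-labelled libraries after 2 h and 119, 108 and 108 CPM after 4 h, against 73.4, 69.3 and 71.9 CPM in their controls. In WT it had 284, 307 and 324 CPM after 2 h and 168, 180.1 and 203 CPM after 4 h, against 71.9, 79.1 and 73.4 CPM in control. Every antigen library lay above every control library of its genotype, and the level was higher after 2 h than after 4 h. The log2 change of Ccnd2 was 1.75 ± 0.07 (SE) after 2 h and 0.65 ± 0.07 after 4 h in TTP-KO-labelled libraries (edgeR adjusted p = 7.22e-18 and 1.98e-08). In WT it was 2.03 ± 0.07 after 2 h and 1.30 ± 0.07 after 4 h (edgeR adjusted p = 2.4e-19 and 9.72e-15), a 4.09-fold rise at 2 h.

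Ccnd3 moved less and reached its highest level after 4 h. It had 409.8, 434 and 423 CPM in TTP-KO-labelled libraries after 2 h and 481, 460.3 and 452 CPM after 4 h, against 393, 388 and 382 CPM in control. WT libraries had 460.0, 451 and 487 CPM after 2 h and 579.7, 605 and 616 CPM after 4 h, against 384, 409 and 417 CPM in control. All 3 libraries of each antigen group lay above their controls, by log2 0.12 and 0.26 in TTP-KO-labelled libraries and 0.21 and 0.57 in WT at 2 h and 4 h. The small rise in TTP-KO-labelled libraries at 2 h no longer passed when 5 of the 6 libraries compared were left out one at a time (edgeR adjusted p up to 0.232), nor with no filter on low counts.

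Ccnd1 was the third cyclin D gene, with few counts, from 10.5 per library upward. It had 3.85, 2.99 and 2.80 CPM in TTP-KO-labelled libraries after 2 h and 3.54, 4.41 and 3.59 CPM after 4 h, against 2.92, 2.91 and 2.80 CPM in control. Its levels in WT were 2.80, 2.49 and 3.37 CPM after 2 h and 4.51, 6.15 and 5.59 CPM after 4 h, against 2.89, 1.83 and 2.04 CPM in control. It rose in WT after 4 h, where the 3 libraries lay above every other WT library (log2 1.25 ± 0.26, edgeR adjusted p = 0.000274). The value in TTP-KO-labelled libraries after 4 h was 0.41 ± 0.26 and did not pass (edgeR adjusted p = 0.234).

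Of the kinase partners of the D-type cyclins, Cdk4 fell at 2 h in both genotypes. Cdk4 had 56.6, 55.3 and 65.2 CPM in TTP-KO-labelled libraries after 2 h and 65.8, 66.6 and 66.2 CPM after 4 h, against 74.0, 73.0 and 73.8 CPM in control. The WT libraries held 55.6, 57.5 and 51.1 CPM after 2 h and 61.3, 66.7 and 63.4 CPM after 4 h, against 72.2, 71.9 and 71.1 CPM in control. At 2 h Cdk4 was below control in every library, by -0.32 in TTP-KO-labelled and -0.39 in WT on the log2 scale. At 4 h it was -0.15 in TTP-KO-labelled libraries (not called) and -0.17 in WT, a call lost under 8 of 11 alternatives. Cdk6 rose in WT after 2 h by log2 0.21 ± 0.07 (edgeR adjusted p = 0.0231), a call lost under 5 of 11 alternatives.

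The Cdk inhibitor genes moved in opposite directions. Cdkn1a, a target of p53 that restrains Cdk2, had 1180.0, 1177 and 1158 CPM in TTP-KO-labelled libraries after 2 h and 656, 629 and 609.7 CPM after 4 h, against 432, 425 and 402 CPM in control. In WT libraries it stood at 1150.3, 1174 and 1139 CPM after 2 h and 742, 771 and 771 CPM after 4 h, against 502, 498 and 475 CPM in control. The level after 2 h was 2.79 times control in TTP-KO-labelled libraries and 2.35 times control in WT. The log2 change of Cdkn1a was 1.48 ± 0.04 at 2 h and 0.59 ± 0.04 at 4 h in TTP-KO-labelled libraries, and 1.23 ± 0.04 and 0.63 ± 0.04 in WT (largest edgeR adjusted p = 4.47e-13). No antigen library overlapped the controls, and at 4 h the level lay between those at 2 h and in control.

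Cdkn1b, the inhibitor linked to quiescence and G1 arrest, had 105, 92.6 and 93.5 CPM in TTP-KO-labelled libraries after 2 h and 92.6, 107 and 110.3 CPM after 4 h, against 192, 205 and 202 CPM in control. WT levels were 107, 95.3 and 98.0 CPM after 2 h and 106, 96.6 and 92.1 CPM after 4 h, against 219, 221 and 229 CPM in control. Control levels were 2.06 times those after 2 h in TTP-KO-labelled libraries and 2.24 times those after 2 h in WT. The fall was log2 -1.04 ± 0.07 at 2 h and -0.96 ± 0.06 at 4 h in TTP-KO-labelled libraries, and -1.16 ± 0.07 and -1.18 ± 0.06 in WT (largest edgeR adjusted p = 1.29e-12). The 4 h and 2 h levels differed by 0.09 ± 0.07 in TTP-KO-labelled libraries and -0.02 ± 0.07 in WT, neither past the threshold.

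**Figure D2:**
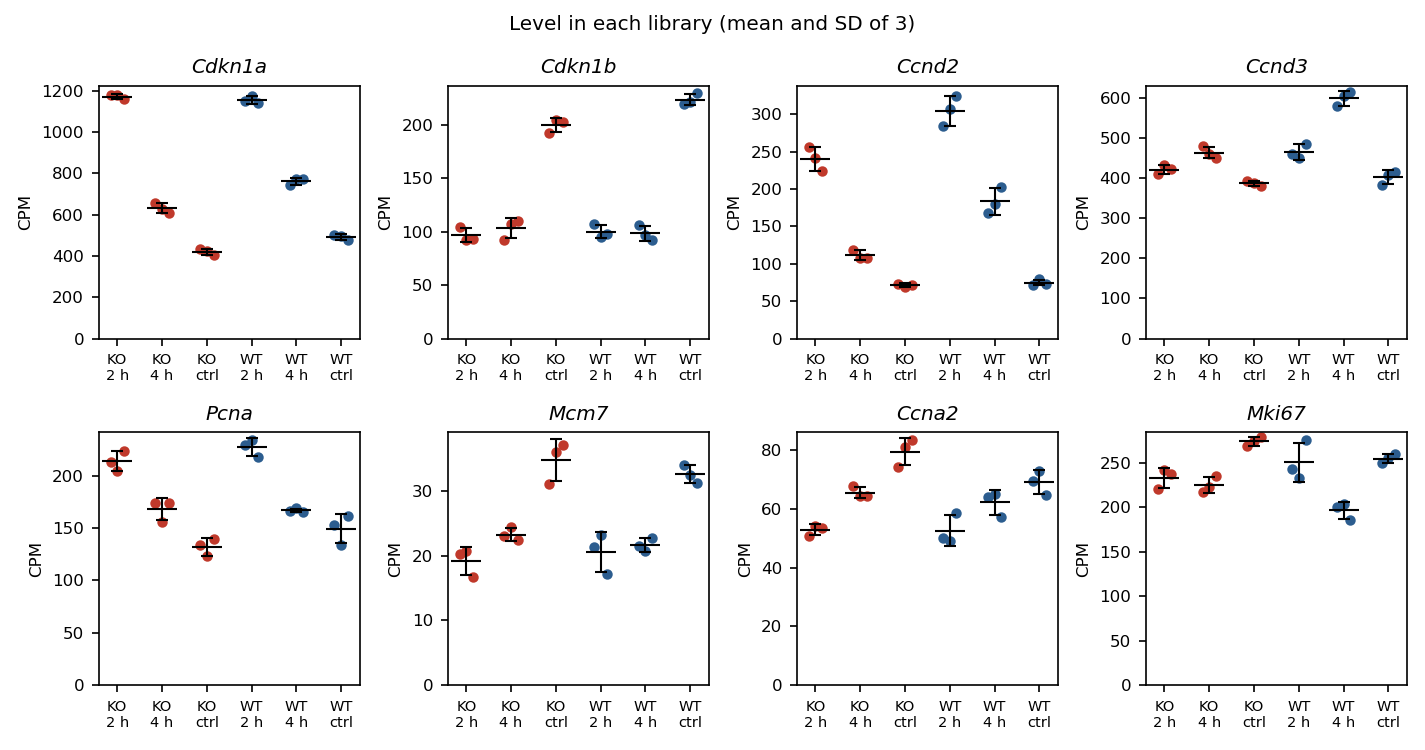
Level of 8 members in each library, in CPM, in the 6 groups, TTP-KO-labelled in red and WT in blue. Each dot is 1 library, and the bar and whiskers are the mean and SD of 3; Cdkn1b lies between 92.1 and 110.3 in the 12 antigen libraries and between 192 and 229 in the 6 controls, and Ccnd2 and Cdkn1a peak at 2 h.

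The 4 genes of the passage from G1 to S phase gave smaller changes. Cdk2, the cyclin E partner, had 35.5, 37.7 and 42.0 CPM in TTP-KO-labelled libraries after 2 h and 37.5, 35.7 and 38.4 CPM after 4 h, against 49.6, 44.8 and 53.2 CPM in control. In WT it had 28.9, 35.9 and 37.6 CPM after 2 h and 35.1, 38.7 and 36.6 CPM after 4 h, against 40.4, 45.8 and 45.2 CPM in control. It fell in all 4 antigen comparisons, by -0.36 and -0.40 at 2 h and 4 h in TTP-KO-labelled libraries and by -0.35 and -0.25 in WT on the log2 scale. The WT calls were lost under 1 of 11 alternatives at 2 h and 6 at 4 h (edgeR adjusted p up to 0.0629 at 2 h and 0.129 at 4 h). E2f1, a transcription factor for S phase genes, had 15.8, 11.9 and 14.2 CPM in TTP-KO-labelled libraries after 2 h and 12.4, 13.2 and 17.4 CPM after 4 h, against 18.3, 17.6 and 18.8 CPM in control. WT libraries had 11.5, 10.4 and 9.44 CPM after 2 h and 10.5, 10.6 and 7.83 CPM after 4 h, against 13.0, 11.8 and 14 CPM in control. Antigen libraries lay below their controls throughout, by log2 -0.38 ± 0.15 in TTP-KO-labelled libraries at 2 h and -0.42 ± 0.15 in WT at 4 h where it passed, calls lost under 8 and 4 of 11 alternatives, DESeq2 among them for both. The cyclin E genes Ccne1 and Ccne2 were called in no comparison (Ccne2 passed in WT at 4 h without control replicate 1), with log2 changes between -0.47 (Ccne2, WT at 4 h) and 0.21 (Ccne1, WT at 2 h).

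Among the 10 genes of replication licensing and nucleotide supply, 1 rose and 5 fell in TTP-KO-labelled libraries at each time, and in WT 1 rose and 3 fell after 2 h and 1 rose and 4 fell after 4 h. Pcna, the sliding clamp of DNA polymerases that also serves in DNA repair, was the one that rose. It had 214, 205 and 224 CPM in TTP-KO-labelled libraries after 2 h and 174, 156 and 174 CPM after 4 h, against 134, 123 and 139.9 CPM in control. Its levels in WT were 230.0, 234 and 218 CPM after 2 h and 167, 169 and 166 CPM after 4 h, against 153, 134 and 162 CPM in control. After 2 h Pcna was above control in every library, by log2 0.70 ± 0.06 in TTP-KO-labelled libraries and 0.60 ± 0.06 in WT (edgeR adjusted p = 2.37e-10 and 4.26e-09). After 4 h the rise was 0.35 in TTP-KO-labelled libraries and 0.15 in WT, and the WT call was lost under 7 of 11 alternatives.

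The minichromosome maintenance (Mcm) genes encode the helicase that opens origins of replication, and they fell or did not pass. Mcm7 had 20.2, 20.6 and 16.6 CPM in TTP-KO-labelled libraries after 2 h and 22.9, 24.4 and 22.4 CPM after 4 h, against 31.1, 36.0 and 37.1 CPM in control. The WT libraries held 21.3, 23.2 and 17.1 CPM after 2 h and 21.5, 20.7 and 22.8 CPM after 4 h, against 34.0, 32.4 and 31.2 CPM in control. It was below control in every antigen library, by log2 -0.86 ± 0.11 and -0.59 ± 0.10 at 2 h and 4 h in TTP-KO-labelled libraries and -0.66 ± 0.11 and -0.59 ± 0.10 in WT (largest edgeR adjusted p = 4.4e-05). Mcm6 had 34.6, 38.4 and 40.1 CPM in TTP-KO-labelled libraries after 2 h and 40.1, 42.2 and 41.4 CPM after 4 h, against 49.5, 52.6 and 53.8 CPM in control. In WT libraries it stood at 41.4, 35.8 and 35.2 CPM after 2 h and 41.7, 36.3 and 37.0 CPM after 4 h, against 42.9, 43.8 and 44.3 CPM in control. The TTP-KO-labelled antigen libraries lay below their controls (log2 -0.46 and -0.34), and in WT the change was -0.23 at 2 h, lost under 8 of 11 alternatives, and -0.19 at 4 h, not called. Mcm4 fell in TTP-KO-labelled libraries by log2 -0.49 at 2 h and -0.55 at 4 h, and in WT at 4 h by -0.33, a call lost under 2 of 11 alternatives. Mcm2 was called lower in WT at both times (log2 -0.80 ± 0.21 and -0.65 ± 0.19), but 1 WT control library stood apart: the controls had 38.6, 17.9 and 22.6 CPM. Without control replicate 1 its change was -0.42 at 2 h (edgeR adjusted p = 0.0222) and -0.27 at 4 h (adjusted p = 0.123), and with only the libraries compared in the fit neither passed. Mcm3 fell in TTP-KO-labelled libraries at 4 h (log2 -0.23) and Mcm5 at 2 h (-0.27), lost under 5 and 6 of 11 alternatives.

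The subunits of ribonucleotide reductase, which makes deoxynucleotides, and thymidylate synthase completed this group. Rrm2 had 48.6, 50.6 and 48.4 CPM in TTP-KO-labelled libraries after 2 h and 52.6, 55.0 and 52.0 CPM after 4 h, against 61.8, 66.3 and 65.2 CPM in control. WT levels were 52.6, 47.8 and 46.4 CPM after 2 h and 47.4, 46.7 and 50.8 CPM after 4 h, against 52.3, 58.5 and 53.6 CPM in control. Rrm2 fell in TTP-KO-labelled libraries by log2 -0.39 ± 0.07 at 2 h and -0.28 ± 0.07 at 4 h (edgeR adjusted p = 7.63e-05 and 0.00232). In WT its change was -0.16 at 2 h, not called, and -0.18 at 4 h, a call lost under 9 of 11 alternatives. Rrm1 and Tyms, the thymidylate synthase gene, were called in none of the 4 antigen comparisons.

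The 21 members of mitosis proper (S and M cyclins with Cdk1 and anaphase promotion, mitotic kinases and checkpoint, and chromosomes, kinetochores and motors) mostly moved down: their log2 change was below 0 in 21 and 20 of 21 at 2 h and 4 h in TTP-KO-labelled libraries, and in 20 and 18 of 21 in WT. The share of all tested genes below 0 was not counted, and their median was -0.03 and 0.01 in TTP-KO-labelled libraries and -0.05 and -0.01 in WT. In TTP-KO-labelled libraries 16 of the 21 fell at 2 h and 11 at 4 h, with a median log2 change of -0.36 and -0.23. In WT 11 fell at 2 h and 9 at 4 h, with a median of -0.26 and -0.25. The summed level of the 21 was 947 ± 21.4 CPM in TTP-KO-labelled libraries after 2 h and 979 ± 28.2 CPM after 4 h, against 1168 ± 38.2 CPM in control (SD, n = 3 each). In WT the sum was 910.3 ± 42.4 CPM after 2 h and 896 ± 21.9 CPM after 4 h, against 1062 ± 26.8 CPM in control (SD, n = 3 each). The antigen libraries of each genotype lay below all its control libraries, and the sums at 2 h and 4 h overlapped. No p is given for the sum. The 8 listed markers of haematopoietic progenitors, which also divide, summed to between 143 and 163 CPM in TTP-KO-labelled antigen libraries, against 164 to 177 CPM in their controls. In WT they summed to between 161 and 191 CPM in antigen libraries, against 173 to 176 CPM in control. Gata1 alone gave 74.2 to 113 CPM of this, while Cd34 had 7.60 to 13.3 CPM and Flt3 at most 0.829 CPM, so the sum is no measure of dividing progenitors. Of the 7 tested, 1 rose and 1 fell at each time in TTP-KO-labelled libraries, and 1 rose and 3 fell at each time in WT. Of the 12 markers of neutrophils and their precursors, 9 fell at 4 h in each genotype, and 1 fell at 2 h in WT. The part of these cells in the lower mitotic levels was not tested.

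**Figure D3:**
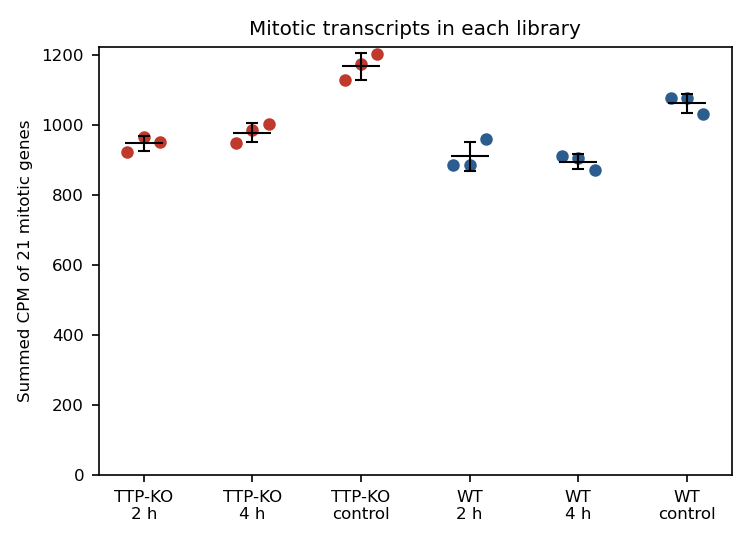
Summed level, in CPM, of the 21 mitotic genes in each library of the 6 groups, TTP-KO-labelled in red and WT in blue, with the mean and SD of 3. The 6 control libraries lie between 1031 and 1203 and the 12 antigen libraries between 871 and 1003.

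Promoters of genes expressed in G2 and mitosis are known for CCAAT boxes, bound by NF-Y, and for the cell cycle genes homology region (CHR), through which the DREAM and MuvB complexes act. RefSeq promoter entries (GRCm38.p6) were matched for 34 of the 42 members, 17 of them mitotic. In the 250 bases before the start, on either strand, 15 of the 17 mitotic members held the letters CCAAT, as did 11 of the 17 others and 37.5% of 27025 genes with an entry. The CHR, searched as TTTGAA or TTCGAA, was found in 9 of the 17 mitotic members, 2 of the 17 others and 19.6% of genes. Both occurred together in 8 mitotic members, 2 others and 7.00% of genes. An E2F site, searched as TTTCCCGC, TTTCGCGC, TTTGCCGC or TTTGGCGC, was found in 1 mitotic member, 4 others and 2.16% of genes. A match describes these letters and shows no binding, and a CCAAT on one strand can overlap one on the other. The 250 bases are printed for the 4 mitotic members called lower in all 4 antigen comparisons (Ccnb2, Ube2c, Top2a and Birc5, the last with no match) and for Cdk1, which was called in none, each 5′ to 3′ on the strand of the gene with CCAAT, CHR and E2F matches in capitals.
Ccnb2, chr9:70421555-70421804, minus strand: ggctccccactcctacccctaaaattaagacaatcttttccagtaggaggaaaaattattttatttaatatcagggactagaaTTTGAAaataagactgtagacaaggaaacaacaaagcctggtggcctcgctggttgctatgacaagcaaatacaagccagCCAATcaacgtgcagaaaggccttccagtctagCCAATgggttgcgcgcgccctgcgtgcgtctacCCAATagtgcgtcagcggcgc
Ube2c, chr2:164769679-164769928, plus strand: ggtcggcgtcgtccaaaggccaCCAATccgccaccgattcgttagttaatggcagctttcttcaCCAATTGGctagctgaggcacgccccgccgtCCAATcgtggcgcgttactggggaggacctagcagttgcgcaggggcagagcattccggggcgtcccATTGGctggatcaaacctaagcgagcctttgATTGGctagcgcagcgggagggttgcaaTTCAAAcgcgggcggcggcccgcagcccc
Top2a, chr11:99024190-99024439, minus strand: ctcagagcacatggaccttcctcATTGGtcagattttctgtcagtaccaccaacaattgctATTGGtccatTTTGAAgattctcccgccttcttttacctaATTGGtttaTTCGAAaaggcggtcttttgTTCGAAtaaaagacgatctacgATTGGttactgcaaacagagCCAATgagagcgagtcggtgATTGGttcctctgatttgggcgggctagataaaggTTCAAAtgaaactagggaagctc
Birc5, chr11:117848987-117849236, plus strand: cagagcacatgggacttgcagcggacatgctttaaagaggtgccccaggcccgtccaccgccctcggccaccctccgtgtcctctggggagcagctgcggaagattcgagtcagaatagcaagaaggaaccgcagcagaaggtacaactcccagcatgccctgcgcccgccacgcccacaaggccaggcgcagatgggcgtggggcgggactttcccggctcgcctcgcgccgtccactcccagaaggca
Cdk1, chr10:69352913-69353162, minus strand: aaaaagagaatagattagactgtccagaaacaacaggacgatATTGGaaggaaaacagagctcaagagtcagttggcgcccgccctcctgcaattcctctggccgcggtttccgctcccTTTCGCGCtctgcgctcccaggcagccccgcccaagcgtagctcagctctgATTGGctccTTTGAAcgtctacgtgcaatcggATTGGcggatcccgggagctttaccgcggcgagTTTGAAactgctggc
The Ube2c and Top2a windows hold 6 CCAAT matches each and those of Ccnb2 and Cdk1 hold 3 each, while that of Birc5 holds none of the 3 motifs. CHR matches number 4 in Top2a, 2 in Cdk1 and 1 in each of Ccnb2 and Ube2c.

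Of the 6 S and M cyclins with Cdk1 and anaphase promotion, 4 fell in TTP-KO-labelled libraries at each time, and in WT 3 fell at 2 h and 2 at 4 h. Ccna2 encodes cyclin A of S and G2 phase. It had 50.7, 54.3 and 53.5 CPM in TTP-KO-labelled libraries after 2 h and 67.7, 64.4 and 64.4 CPM after 4 h, against 74.3, 80.9 and 83.3 CPM in control. In WT it had 50.0, 49.2 and 58.6 CPM after 2 h and 64.0, 65.2 and 57.3 CPM after 4 h, against 69.4, 72.9 and 64.8 CPM in control. Ccna2 was below control in every library at 2 h (log2 -0.59 ± 0.08 in TTP-KO-labelled libraries and -0.39 ± 0.08 in WT, edgeR adjusted p = 3.02e-07 and 0.000198). At 4 h it was -0.28 ± 0.07 in TTP-KO-labelled libraries (edgeR adjusted p = 0.00322) and -0.15 ± 0.07 in WT, not called. Ccnb2, a B-type cyclin, had 42.0, 43.4 and 41.4 CPM in TTP-KO-labelled libraries after 2 h and 39.2, 35.8 and 35.8 CPM after 4 h, against 52.3, 54.4 and 55.7 CPM in control. WT libraries had 29.0, 35.3 and 41.1 CPM after 2 h and 39.0, 36.6 and 36.1 CPM after 4 h, against 44.9, 55.6 and 50.5 CPM in control. It fell in all 4 comparisons and under every alternative, by log2 -0.36 and -0.55 in TTP-KO-labelled libraries and -0.51 and -0.43 in WT at 2 h and 4 h.

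Ube2c and Cdc20 encode the ubiquitin-conjugating enzyme and the activator of the anaphase-promoting complex. Ube2c had 65.1, 70.6 and 77.6 CPM in TTP-KO-labelled libraries after 2 h and 64.6, 71.4 and 67.6 CPM after 4 h, against 84.4, 85.1 and 79.6 CPM in control. Its levels in WT were 58.6, 61.8 and 66.1 CPM after 2 h and 64.3, 68.2 and 67.9 CPM after 4 h, against 89.4, 81.7 and 73.9 CPM in control. Ube2c fell by log2 -0.22 and -0.29 in TTP-KO-labelled libraries and -0.39 and -0.29 in WT, the first of these lost under DESeq2 and when any of 3 single libraries was left out. Cdc20 had 26.6, 28.0 and 32.5 CPM in TTP-KO-labelled libraries after 2 h and 27.4, 30.1 and 31.5 CPM after 4 h, against 35.9, 42.3 and 42.5 CPM in control. The WT libraries held 28.9, 27.9 and 31.7 CPM after 2 h and 31.4, 25.1 and 31.6 CPM after 4 h, against 31.5, 36.2 and 34.8 CPM in control. It fell in TTP-KO-labelled libraries (log2 -0.48 ± 0.11 and -0.45 ± 0.10, edgeR adjusted p = 0.000612 and 0.000909), and the WT values of -0.21 ± 0.11 and -0.22 ± 0.10 did not pass. Cdk1, the mitotic kinase itself, and Ccnb1 were called in no comparison: Cdk1 had 44.0, 47.0 and 46.5 CPM in TTP-KO-labelled libraries after 2 h, against 47.0, 43.8 and 49.4 CPM in their controls.

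Of the 7 mitotic kinases and checkpoint genes, 5 fell at 2 h and 2 at 4 h in TTP-KO-labelled libraries, and 4 at 2 h and 1 at 4 h in WT. Aurkb, the kinase of the chromosomal passenger complex, had 17.7, 21 and 23.2 CPM in TTP-KO-labelled libraries after 2 h and 23.1, 24.3 and 24.3 CPM after 4 h, against 32.6, 31.3 and 32.0 CPM in control. In WT libraries it stood at 21.4, 16.7 and 17.8 CPM after 2 h and 21.4, 22.7 and 18.2 CPM after 4 h, against 27.3, 23.6 and 23.9 CPM in control. All antigen libraries lay below their controls, by log2 -0.63 and -0.42 in TTP-KO-labelled libraries and -0.43 in WT at 2 h, with -0.26 in WT at 4 h not called. Birc5 encodes survivin, of the same complex. It had 37.9, 33.1 and 31.7 CPM in TTP-KO-labelled libraries after 2 h and 36.6, 34.6 and 39.0 CPM after 4 h, against 38.8, 48.4 and 44.4 CPM in control. WT levels were 30.2, 27.8 and 30.9 CPM after 2 h and 32.2, 32.4 and 33.1 CPM after 4 h, against 38.0, 39.7 and 38.9 CPM in control. Birc5 fell by log2 -0.36 and -0.26 in TTP-KO-labelled libraries and -0.39 and -0.25 in WT, and the 4 h calls were lost under 4 and 5 of 11 alternatives. In TTP-KO-labelled libraries at 4 h its levels overlapped those in control.

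Bub1b and Bub1 encode spindle checkpoint proteins. Bub1b had 13.7, 12.5 and 12.6 CPM in TTP-KO-labelled libraries after 2 h and 18.8, 20.0 and 18.1 CPM after 4 h, against 24.7, 20.1 and 20.2 CPM in control. In WT it had 16.0, 13.7 and 12.5 CPM after 2 h and 15.5, 17.0 and 16.8 CPM after 4 h, against 15.8, 23.4 and 20.0 CPM in control. The fall at 2 h was log2 -0.74 ± 0.14 in TTP-KO-labelled libraries and -0.48 ± 0.14 in WT (edgeR adjusted p = 7.53e-05 and 0.00621), the WT call lost without control replicate 2 (adjusted p = 0.0541), and the WT libraries overlapped their controls. At 4 h the values were -0.19 and -0.25, not called. Bub1 had 7.98, 8.42 and 7.16 CPM in TTP-KO-labelled libraries after 2 h and 10.4, 12.3 and 11.7 CPM after 4 h, against 13.0, 11.1 and 13.6 CPM in control. WT libraries had 6.10, 7.74 and 9.03 CPM after 2 h and 8.30, 11.1 and 10.2 CPM after 4 h, against 11.3, 9.63 and 9.90 CPM in control. It fell in TTP-KO-labelled libraries at 2 h (log2 -0.68 ± 0.17, edgeR adjusted p = 0.00179) and was not called at 4 h or in WT. Plk1, the Polo kinase, was lower in TTP-KO-labelled libraries at 2 h by log2 -0.36, a call lost under DESeq2 and without replicate 2 at 2 h. Tpx2, which activates Aurora A, was lower in WT at 2 h by -0.27, a call lost under 6 of 11 alternatives. Aurka was called in no comparison, but leaving out replicate 2 of TTP-KO after 4 h made it higher than in WT at 4 h (0.59, edgeR adjusted p = 0.0465), and leaving out replicate 3 of WT after 4 h made it lower at 4 h than at 2 h in WT (-0.53, adjusted p = 0.039).

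Of the 8 genes of chromosomes, kinetochores and motors, 7 fell at 2 h and 5 at 4 h in TTP-KO-labelled libraries, and 4 at 2 h and 6 at 4 h in WT. Mki67, whose protein Ki-67 coats mitotic chromosomes and is the usual marker of cycling cells, had 221, 242 and 237 CPM in TTP-KO-labelled libraries after 2 h and 218, 223 and 235 CPM after 4 h, against 269, 275 and 279.6 CPM in control. Its levels in WT were 243, 233 and 276 CPM after 2 h and 201, 204 and 186 CPM after 4 h, against 249.7, 256 and 259.8 CPM in control. The WT libraries at 2 h overlapped their controls (log2 -0.02 ± 0.05, not called), and the other 3 antigen groups lay below theirs. Mki67 fell by -0.23 ± 0.05 and -0.28 ± 0.05 at 2 h and 4 h in TTP-KO-labelled libraries and by -0.37 ± 0.05 at 4 h in WT (edgeR adjusted p = 0.00101, 0.00011 and 2.15e-06). Cenpf, which binds the outer kinetochore, had 23.5, 24.6 and 24.7 CPM in TTP-KO-labelled libraries after 2 h and 28.8, 27.3 and 29.0 CPM after 4 h, against 32.3, 31.3 and 42.7 CPM in control. The WT libraries held 25.1, 25.6 and 24.9 CPM after 2 h and 23.2, 24 and 23.3 CPM after 4 h, against 33.4, 28.9 and 28.4 CPM in control. Cenpf was below control in every antigen library, and the change was called at both times in TTP-KO-labelled libraries (-0.55 and -0.33) and at 4 h in WT (-0.36). The 4 h calls were each lost without 1 library, which was control replicate 3 of TTP-KO (edgeR adjusted p = 0.223) and control replicate 1 of WT (adjusted p = 0.0567).

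The kinesins Cenpe, which links chromosomes to microtubules, and Kif2c, which shortens microtubules at kinetochores, fell at 2 h in both genotypes. Kif2c had 8.26, 7.47 and 6.85 CPM in TTP-KO-labelled libraries after 2 h and 6.82, 8.82 and 11.5 CPM after 4 h, against 11.2, 11.8 and 11.3 CPM in control. In WT libraries it stood at 4.62, 7.60 and 4.31 CPM after 2 h and 8.83, 8.17 and 6.92 CPM after 4 h, against 12.7, 12.0 and 9.60 CPM in control. The WT fall at 2 h was log2 -1.04 ± 0.21 (edgeR adjusted p = 0.000245), beside -0.60 ± 0.20 in TTP-KO-labelled libraries, a call lost when any of 3 single libraries was left out. At 4 h Kif2c was -0.35 in TTP-KO-labelled libraries, not called, and -0.51 in WT, a call lost under 5 of 11 alternatives. Cenpe had 26.2, 25.1 and 19.0 CPM in TTP-KO-labelled libraries after 2 h and 25.6, 29.1 and 30.5 CPM after 4 h, against 30.4, 32.6 and 31.3 CPM in control. WT levels were 16.7, 18.8 and 21.7 CPM after 2 h and 25.5, 24.9 and 21.8 CPM after 4 h, against 32.0, 28.6 and 26.1 CPM in control. The fall at 2 h was -0.42 in TTP-KO-labelled libraries and -0.59 in WT, and at 4 h neither -0.15 nor -0.26 was called. The TTP-KO-labelled call was lost without replicate 3 at 2 h (edgeR adjusted p = 0.0621). Top2a, the topoisomerase that untangles sister chromatids, fell in all 4 comparisons by between -0.19 and -0.24, the WT calls lost under 3 and 4 of 11 alternatives. Kif11, the motor that pushes spindle poles apart, fell at 2 h and 4 h in TTP-KO-labelled libraries (-0.41 and -0.48) and at 4 h in WT (-0.33, lost under 3 of 11 alternatives). Cenpa, the histone H3 variant of centromeres, fell at 4 h in TTP-KO-labelled libraries (-0.21) and at both times in WT (-0.26 and -0.28), and the last of these held under every alternative. Kif20a, a kinesin of cytokinesis, was lower in TTP-KO-labelled libraries at 2 h (-0.44), a call lost under 4 of 11 alternatives.

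The overlap of antigen calls between the 2 genotypes is set beside that of all tested genes. At 2 h, 14 members fell in both, which is 56.0% of the 25 that fell in TTP-KO-labelled libraries and 82.4% of the 17 that fell in WT, beside 72.4% and 69.7% over all tested genes that fell. At 4 h, 13 fell in both, 72.2% of the 18 in TTP-KO-labelled libraries and 76.5% of the 17 in WT, beside 76.1% and 69.1% over all genes. The 4 that rose in TTP-KO-labelled libraries at each time also rose in WT, 80% of the 5 that rose there, where over all genes 81.6% and 76.1% of the rises in TTP-KO-labelled libraries at 2 h and 4 h were also rises in WT. No member was called in opposite directions, and the log2 changes had the same sign in 40 of 42 members at 2 h and 38 at 4 h. Signs were not counted over all genes. A call in one genotype and not in the other does not show a difference, and the interaction tests below address it.

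**Figure D4:**
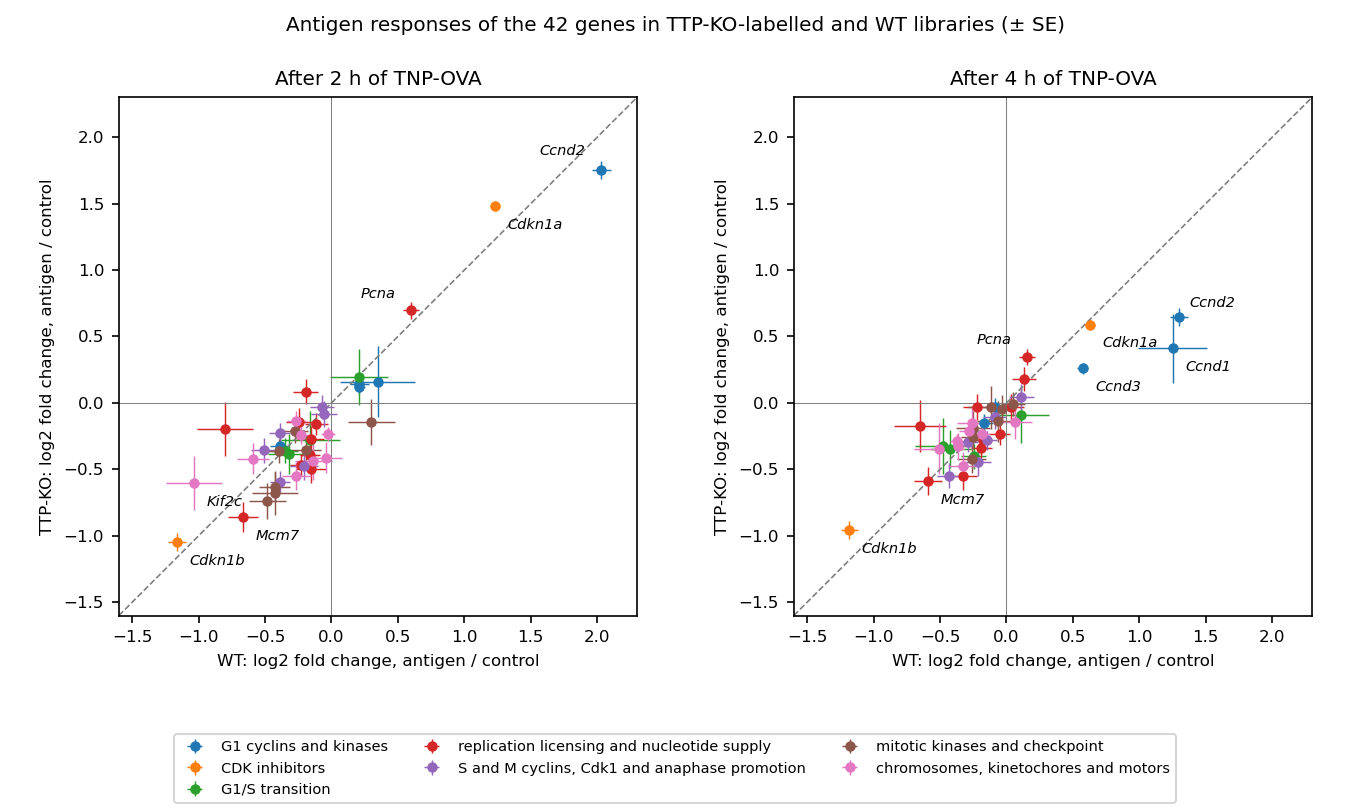
Log2 fold change after antigen against control in TTP-KO-labelled libraries (vertical) and WT libraries (horizontal) for the 42 genes, at 2 h (left) and 4 h (right), coloured by role, with SE as bars and the line of equality dashed. Most points lie near the line; at 4 h Ccnd2 and Ccnd3 lie below it, with changes of 0.65 and 0.26 in TTP-KO-labelled libraries and 1.30 and 0.57 in WT.

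Among regulators of G1, the antigen response at 4 h differed between genotypes for Ccnd2 and Ccnd3. For Cdkn1a the change from 2 h to 4 h differed. At 4 h the rise of Ccnd2 was smaller in TTP-KO-labelled than in WT libraries, with a difference of responses of -0.65 ± 0.10 on the log2 scale (edgeR interaction test, adjusted p = 0.000552). The rise of Ccnd3 at 4 h was also smaller, by -0.31 ± 0.06 (edgeR adjusted p = 0.0078). These were 2 members with a lower and none with a higher response, where 0.412% and 0.277% of all tested genes had one; 2 were higher at an unadjusted p under 0.05, and DESeq2 called none higher. Between 2 h and 4 h Cdkn1a fell further in TTP-KO-labelled libraries, by -0.89, than in WT, by -0.60, and the difference was -0.29 ± 0.05 (edgeR adjusted p = 0.00724). It was the only member called for that change by edgeR, where 0.220% of genes were lower and 0.0924% higher, while 3 members were higher at an unadjusted p under 0.05 and DESeq2 called none of them. Leaving out replicate 2 of WT at 2 h added Mki67 as higher (0.36), and leaving out replicate 1 of WT at 4 h added Ccnd2 as lower (-0.44), as did fitting with no filter on low counts (-0.38). At 2 h edgeR called no member for a different response, while 2 were higher and 5 lower at an unadjusted p under 0.05, DESeq2 called Cdkn1a (higher by 0.25), and 0.0355% of all genes were called higher and 0.0142% lower. The 3 calls held under every alternative run.

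Few levels of single members were called between genotypes. In TTP-KO-labelled libraries after 2 h Ccnd2 was lower than in WT by log2 -0.34 ± 0.06 (edgeR adjusted p = 0.00218), the 1 member called there, and none was higher, where 1.88% and 0.909% of all genes were. At an unadjusted p under 0.05, 8 were higher, and DESeq2 called none of them higher; Ccnd3 (-0.14) was called lower under DESeq2 and relative log expression scaling. After 4 h Ccnd2 was lower by -0.71 ± 0.07, Ccnd3 by -0.37 ± 0.04 and Cdkn1a by -0.27 ± 0.04 (edgeR adjusted p = 2.63e-08, 6.37e-07 and 1.7e-05), and in all 3 the libraries of the 2 genotypes did not overlap. These 3 lower and 4 higher members compare with 3.40% and 1.83% of all genes. Called or not, 4 lower and 11 higher members had no overlap of the genotypes at 4 h, and the share of all genes without overlap was not counted. In control, Cdkn1a was lower by -0.23 ± 0.04 (edgeR adjusted p = 0.000625) and no member was called higher, where 1.24% and 0.412% of all genes were. At an unadjusted p under 0.05, 15 members were higher and 3 lower in control, DESeq2 called none higher, and 2 were called higher without WT control replicate 1 (Top2a and Kif11) and 2 with no filter on low counts (E2f1 and Kif11). The median log2 difference of the members was 0.08 after 2 h, 0.10 after 4 h and 0.14 in control, with 28, 35 and 34 of 42 above 0, beside medians over all genes of 0.00, 0.01 and 0.00.

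The summed level of the 21 mitotic members was higher in TTP-KO-labelled libraries than in WT in control and at 4 h. Among single mitotic members, 1 was called at 4 h and none in control. Their summed level was 948 to 1003 CPM in TTP-KO-labelled libraries after 4 h, against 871 to 911 CPM in WT, and 1128 to 1203 CPM in TTP-KO-labelled controls, against 1031 to 1078 CPM in WT controls, with no overlap in either. After 2 h the ranges of 924 to 966 CPM in TTP-KO-labelled libraries and 886 to 959 CPM in WT overlapped. The log2 difference was above 0 in 13 of the 21 after 2 h, 20 after 4 h and 20 in control. Its median over the 21 was 0.06, 0.17 and 0.14, beside 0.004, 0.007 and -0.001 over all tested genes. The share of all genes above 0 was not counted, and no p is given for these sums.

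The calls of the 4 members higher in TTP-KO-labelled libraries after 4 h were each lost when any of several libraries was left out, while the difference kept its direction. They were E2f1 (log2 0.56 ± 0.15), Rrm1 (0.35 ± 0.10), Cdk6 (0.27 ± 0.07) and Mki67 (0.20 ± 0.05), with edgeR adjusted p from 0.0197 to 0.0332. Cdk6 had 91.1, 85.8 and 101 CPM in TTP-KO-labelled libraries after 4 h, against 77.8, 78.2 and 75.6 CPM in WT. Rrm1, the large subunit of ribonucleotide reductase, had 31.7, 38.9 and 31.4 CPM in TTP-KO-labelled libraries after 4 h, against 27.0, 26.2 and 26.8 CPM in WT. In each of the 4 genes the genotypes did not overlap at 4 h, which held for 11 members in the higher direction and adds little to the test. Without replicate 3 of WT after 4 h none of the 4 passed, without its replicate 1 only E2f1 did, without its replicate 2 E2f1 and Mki67 did, and without replicate 3 of TTP-KO after 4 h only Rrm1 did. Without replicate 2 of TTP-KO after 4 h, Rrm1 and Mki67 were lost, and Rrm1 was also lost under DESeq2. Over the 11 alternatives the log2 difference ran from 0.40 to 0.67 for E2f1, 0.25 to 0.40 for Rrm1, 0.20 to 0.32 for Cdk6 and 0.16 to 0.23 for Mki67.

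**Figure D5:**
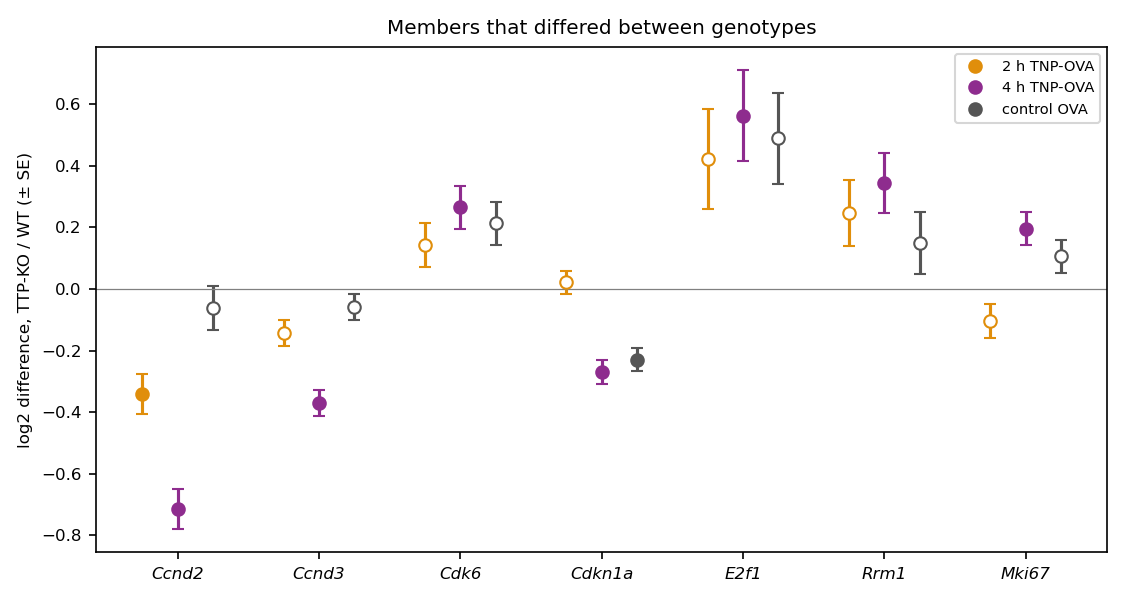
Log2 difference between TTP-KO-labelled and WT libraries, with SE, for the 7 members called in a genotype comparison, after 2 h of TNP-OVA, after 4 h and in control OVA. Filled points passed an edgeR adjusted p under 0.05 and open points did not; Ccnd2 goes to -0.71 at 4 h, and E2f1 lies above 0 in all 3 conditions.

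Markers of other cell types, and of basophils, moved with genotype. Of the 11 basophil markers 1 was higher and 1 lower in TTP-KO-labelled than in WT libraries after 2 h, 1 higher and 5 lower after 4 h, and 1 higher and 2 lower in control. The 12 neutrophil and precursor markers summed to between 2908 and 3252 CPM in TTP-KO-labelled libraries after 2 h, against 1832 to 2157 CPM in WT, and to between 2375 and 2674 CPM after 4 h, against 1499.9 to 1588 CPM in WT. In control they summed to between 2637 and 3001 CPM in TTP-KO-labelled libraries, against 2027 to 2174 CPM in WT. Of these 12, 8 were higher in TTP-KO-labelled libraries after 2 h, 9 after 4 h and 5 in control. Of 8 monocyte and macrophage markers 2, 5 and 1 were higher in those 3 conditions. The T and B cell list (4 tested of 8) had all 4 lower in each condition, with sums of 21.8 to 29.3 CPM in TTP-KO-labelled libraries against 46.2 to 59.0 CPM in WT, and 2 of 5 mast cell markers were lower in each. The part of these markers and cell types in the genotype differences of Ccnd2, Ccnd3, Cdkn1a and the 4 higher members was not tested. Their part in the higher summed mitotic level was not tested either.

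TTP binds AU-rich elements in 3′ untranslated regions, of which UAUUUAU is the core (TATTTAT in DNA letters) and TTATTTATT the longer form. In 1 GENCODE M21 transcript per gene (GRCm38), TATTTAT occurred in 14 of the 42 members and 26.1% of 20757 genes, and TTATTTATT in 5 members and 7.12% of genes. The 3 members with a smaller response or a lower level in TTP-KO-labelled libraries, Ccnd2, Ccnd3 and Cdkn1a, held neither. Of the 4 called higher at 4 h, E2f1 held 3 of the shorter and 2 of the longer motif, Cdk6 held 2 and 1, and Rrm1 and Mki67 held none. Among genes with a 3′ region of like length, 31.3% held the shorter and 8.44% the longer motif for E2f1, and 94.3% and 46.7% for the much longer one of Cdk6. For the members without a match, the share of such genes with the shorter motif was 68.1% for Ccnd2, 23.0% for Ccnd3 and 32.3% for Cdkn1a. It was 31.4% for Rrm1 and 8.32% for Mki67. The longer matches of these members that changed with genotype are shown 5′ to 3′ with the motif in capitals.
E2f1, chr2:154560035-154560059, minus strand: tggagcgtTTATTTATTtatcgagg
E2f1, chr2:154559901-154559925, minus strand: caagcagtTTATTTATTgggaaagg
Cdk6, chr5:3528498-3528522, plus strand: catgtataTTATTTATTgctaagcc
A match is a description of the letters and no measure of binding.

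From 2 h to 4 h after antigen, some members moved back towards control and some further from it. In TTP-KO-labelled libraries 5 members (11.9%) were higher and 3 (7.14%) lower at 4 h than at 2 h, where 14.6% and 16.2% of all genes were. Ccnd2, Cdkn1a and Pcna came down, by log2 -1.11, -0.89 and -0.35, and Ccnd3, Ccna2, Plk1, Bub1 and Bub1b were higher, by 0.14, 0.31, 0.31, 0.54 and 0.55. Of the 5 higher calls those of Ccna2 and Bub1b held under every alternative, and 3 were left without replicate 1 at 2 h or replicate 2 at 4 h. Ccnd3 moved further from its control level and the other 7 moved back. In WT 7 (16.7%) were higher and 5 (11.9%) lower, where 15.2% and 15.9% of all genes were. Ccnd2 (-0.73), Cdkn1a (-0.60), Pcna (-0.44), Mki67 (-0.35) and Cdk6 (-0.29) came down, and of the 7 higher only Ccnd1 (0.90) and Ccnd3 (0.37) held under every alternative. Ccnd1, Ccnd3 and Mki67 moved further from control in WT. The count of 7 was 4 under DESeq2, 4 without replicate 3 at 2 h and 3 without replicate 2 at 4 h.

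Beyond the 42 members, 167 further cell cycle genes in 9 lists were read from the same fits, 164 of them tested. In TTP-KO-labelled libraries 17 rose and 60 fell after 2 h and 15 rose and 47 fell after 4 h, with a median log2 change of -0.26 and -0.18. In WT 17 rose and 55 fell after 2 h and 16 rose and 58 fell after 4 h, with medians of -0.20 and -0.22. The shares of all genes that rose or fell are those given for the members. Between genotypes 3 were higher and 3 lower in TTP-KO-labelled libraries in control, 1 and 2 after 2 h and 6 and 3 after 4 h. Of all tested genes 0.412% and 1.24%, 0.909% and 1.88%, and 1.83% and 3.40% were. In control, the condensin gene Ncapd2 was higher (log2 0.31 to 0.37 over 11 alternatives) and Btg1 (-0.27 to -0.23) and Btg2 (-0.29 to -0.27) were lower. Foxo3 was lower after 2 h (-0.42 to -0.33). These calls held under every alternative.

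Of 6 other inhibitors of cyclin-dependent kinases, 2 rose at each time in both genotypes, and 1 fell at 2 h and 2 at 4 h in TTP-KO-labelled libraries and 2 at each time in WT. Cdkn2b, which blocks Cdk4 and Cdk6, rose by log2 2.15 ± 0.07 and 1.67 ± 0.07 at 2 h and 4 h in TTP-KO-labelled libraries and by 2.11 ± 0.07 and 2.01 ± 0.07 in WT. Cdkn2a, its neighbour at the same locus, rose by 1.47 ± 0.12 and 1.82 ± 0.12 in TTP-KO-labelled libraries and by 1.25 ± 0.12 and 1.67 ± 0.11 in WT. Cdkn2c fell in all 4 comparisons, by between -0.35 and -0.47. After 4 h Cdkn2b was lower in TTP-KO-labelled than in WT libraries by log2 -0.53 ± 0.06 (edgeR adjusted p = 7.99e-07).

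Of 20 retinoblastoma, E2F and DREAM genes, 11 fell at 2 h and 9 at 4 h in TTP-KO-labelled libraries, and 8 and 10 in WT. Rbl2, a retinoblastoma relative that represses cell cycle genes in quiescence, fell by log2 -1.18 ± 0.09 and -0.76 ± 0.09 in TTP-KO-labelled libraries and by -1.19 ± 0.10 and -0.84 ± 0.09 in WT. The atypical repressor E2f8 fell by -0.75 and -0.91 in TTP-KO-labelled libraries and -0.89 and -1.09 in WT, and E2f2 was lower at 4 h by -0.91 and -0.62. Of 24 genes of origin firing and replication forks, 7 and 6 fell in each genotype at 2 h and 4 h. Tk1, thymidine kinase, was lower at 2 h by -0.92 in TTP-KO-labelled libraries and -0.43 in WT.

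Of 15 checkpoint kinase and Cdc25 genes, 7 fell at 2 h and 3 at 4 h in TTP-KO-labelled libraries, and 6 and 3 in WT, among them the phosphatase gene Cdc25b (-0.79 and -0.72 at 2 h). Mdm2, a p53 target that degrades p53, rose at 2 h by 0.57 in TTP-KO-labelled libraries and 0.42 in WT. In the 3 lists of mitosis, 7 and 2 of 21 spindle checkpoint and kinetochore genes, 8 and 8 of 23 cohesin, condensin and anaphase genes and 9 and 5 of 21 spindle and cytokinesis genes fell at 2 h and 4 h in TTP-KO-labelled libraries. In WT 9 and 5, 6 and 12, and 8 and 8 fell. Of all tested genes 16.6% and 16.7% fell at these times in TTP-KO-labelled libraries, and 17.3% and 18.4% in WT. The 2 of 21 lay below that share, and the 5 of 21 and the 3 of 15 at 4 h lay little above it. Rad21 of cohesin fell by -0.51 and -0.51 in TTP-KO-labelled libraries and -0.45 and -0.42 in WT. Stmn1, which destabilises microtubules, fell by -0.46 and -0.67 in TTP-KO-labelled libraries and -0.49 and -0.69 in WT.

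The lists of other cyclins and kinases and of growth arrest and quiescence moved both ways. Of 20 other cyclins and kinases 8 rose and 4 fell at 2 h in TTP-KO-labelled libraries and 7 rose and 4 fell in WT, with 4 up and 3 down and 4 up and 4 down at 4 h. Cdk17 rose by log2 1.56 in TTP-KO-labelled libraries and 1.59 in WT at 2 h, and Ccng2, a cyclin linked to arrest, fell by -0.83 and -0.90 at 4 h. Of 14 growth arrest and quiescence genes 4 rose and 6 fell at 2 h and 1 rose and 9 fell at 4 h in TTP-KO-labelled libraries, and 4 rose and 5 fell and 2 rose and 8 fell in WT. The antiproliferative gene Btg1 rose at 2 h by 1.07 in TTP-KO-labelled libraries and 0.97 in WT, and Foxo3, a transcription factor of quiescence, fell by -0.80 and -0.53. Btg2 rose at 2 h by 0.54 and 0.38 and was below control at 4 h by -0.40 and -0.64.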

How the data were processed

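RNA was sequenced in 18 bulk libraries, 3 in each of 6 groups. The authors deposited 1 table of estimated counts for 56413 genes, with no normalization. Per the submitters' processing notes, the tools were RSEM 1.3.1, STAR 2.7.10a, cutadapt 3.5 and R (4.4.0 and 4.4.1) with the build GRCm39, and no strand setting is given there. Control columns carry a name for unstimulated cells, and genotype and number tie them to the control OVA samples.

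The estimated counts were rounded to whole numbers and tested in R 4.3.3 with the quasi-likelihood F-test of edgeR 4.0.16 (limma 3.58.1, robust fit, TMM scaling). The 14076 genes kept by filterByExpr were fitted in 1 model of the 6 groups with 12 residual degrees of freedom, and p-values were adjusted over all of them by Benjamini-Hochberg at 0.05. There were 12 contrasts: 3 between genotypes, 6 between conditions and 3 interactions. CPM are TMM-scaled and not corrected for gene length, so levels were compared between libraries and not between genes. The edgeR and DESeq2 fits were run on simulated data with changes put into the comparison of the control groups only. Those changes were larger than many called here, so smaller changes were not covered. Within groups the 18 pairs of libraries differed by more than sampling noise (chi-square per degree of freedom 3.01 to 7.28), so none was counted as a duplicate.

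The members and lists were chosen with earlier results of these data known. In each of 7 role groups every library is given for up to 4 members, those with the smallest p over the 12 contrasts; members called between genotypes or in an interaction are named too, and at most 3 called genes of each further list. Other members given values were named after these had been seen. Promoters came from RefSeq (GRCm38.p6), and 3′ untranslated regions from 1 GENCODE M21 transcript per gene (GRCm38), the principal or basic one with the longest region, compared with regions of 0.8 to 1.25 times its length. Alternatives were relative log expression scaling, no filter on low counts, DESeq2 1.42.0, a replicate block, a fit of only the libraries compared and leaving out each library in turn.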

Additional observations from a re-analysis of the deposited data

Results flagged for a closer look

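By a direct test, the antigen response at 4 h differed between genotypes in 2 members, and the change from 2 h to 4 h in 1 other. The response of Ccnd2 after 4 h was lower in TTP-KO-labelled than in WT libraries by -0.65 ± 0.10 on the log2 scale (SE, edgeR interaction test, adjusted p = 0.000552). The response of Ccnd3 after 4 h was lower by -0.31 ± 0.06 (edgeR adjusted p = 0.0078). The change of Cdkn1a from 2 h to 4 h was lower by -0.29 ± 0.05 (edgeR adjusted p = 0.00724). All 3 kept their direction and passed under the 17 alternatives run for each, with adjusted p up to 0.00505 for Ccnd2, 0.0378 for Ccnd3 and 0.0489 for Cdkn1a. Neutrophil and monocyte markers were higher and T and B cell markers lower in TTP-KO-labelled libraries, and their part in these differences was not tested.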

How the results depend on the processing

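Of 127 calls of single members over the 12 comparisons, 83 passed under every alternative, 44 were lost under at least 1 and none changed sign. Calls lost numbered 4 under relative log expression scaling, 8 with no filter on low counts, 19 under DESeq2 and 9 when only the libraries compared were fitted. The labels do not say if the replicate numbers pair the libraries. Same-numbered libraries had correlations of deviations from -0.0814 to 0.0408 over 45 pairs. Pairs with different numbers had -0.0699 to 0.103 over 90 pairs. These values show no pairing by number, and they cannot exclude a shared source with small effects. With a replicate block, 24 members fell in TTP-KO-labelled libraries at 2 h and 15 in WT at 4 h, where 25 and 17 did without it, the other counts of members did not move, and 3 of 127 calls were lost.

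Counts moved by more than 1.5 times in these cases. In TTP-KO-labelled against WT controls, 2 members were called higher with no filter, against 0. In that comparison after 2 h, 2 were called lower under relative log expression scaling and 2 under DESeq2, against 1. In WT, DESeq2 gave 11 lower at 4 h against control, where edgeR gave 17, and 4 higher at 4 h than at 2 h, where edgeR gave 7. DESeq2 called 1 member for a higher response at 2 h, against 0, and with no filter 2 members had a lower change from 2 h to 4 h, against 1. Leaving out 1 library at a time, members higher in TTP-KO-labelled than WT libraries numbered 0 to 2 in control and 0 to 4 at 4 h, and those lower in control 1 to 2. Those lower in WT at 4 h numbered 10 to 16. Those higher at 4 h than at 2 h numbered 3 to 5 in TTP-KO-labelled libraries and 3 to 8 in WT. For the difference in the change from 2 h to 4 h, 0 to 1 members were higher and 1 to 2 lower. The causes were not tested. Low counts limit Ccnd1, and 3 libraries a group limit every test.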
